A study of Mus musculus with 6 samples.

Results

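Noncollagenous proteins of articular cartilage were followed through 10 genes: Prg4, Cilp, Cilp2, Clu, Comp, Matn1, Matn3, Cytl1, Clec3a and Ucma. They were taken by gene symbol from a table of 34709 genes, and each symbol matched 1 row. The table came from RNA sequencing of articular cartilage of knockout (KO) mice and of wildtype (WT) mice, with 3 libraries labelled for each group. The column names give an age of 18 months, and the study's methods describe male littermates, with the KO line on a C57BL/6J background and no cell type named to which the deletion is limited. The comparison asks which transcripts differed in aged cartilage that lacked the targeted gene. Neither the labels nor the methods say whether a library was made from 1 animal or from a pool, so the p-values measure the spread between these samples, which may be technical.

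The libraries held 52268311 to 63331135 counts each. KO replicates 2 and 3 differed by a noise ratio of 5.77 (1 would be Poisson sampling of reads), against 23.8 to 85.0 for the other 14 pairs of libraries. They were therefore averaged and counted as 1 sample, which left 2 KO and 3 WT samples. The library labelled KO replicate 1 stood with the WT libraries on the first principal component (45.8% of the variance), at 24.6 against 23.9 to 26.2 for WT, whereas KO replicates 2 and 3 were at -50.7 and -49.6. That component was computed on all 6 libraries, with KO replicates 2 and 3 both in it. By noise ratio, the library labelled KO replicate 1 differed from WT replicates 1, 2 and 3 by 77.2, 25.9 and 43.7. From KO replicates 2 and 3 it differed by 75.1 and 73.8. The differences of the members are given with and without the library labelled KO replicate 1. Of 14 genes that define chondrocytes, 11 had a mean of at least 0.5 FPKM (fragments per kilobase of transcript, scaled to library size, a level corrected for gene length). Col9a1, Epyc and Sox5 were below that level. Col2a1, the gene of the main cartilage collagen, was at 12.4 to 21.3 FPKM, while genes of neutrophils and erythroid cells were far more abundant. The summed level of 7 neutrophil genes ranged from 25494 to 59867 FPKM, and that of the 11 chondrocyte genes from 200.3 to 358 FPKM. That of 7 B cell genes ranged from 81.7 to 290 FPKM and that of 7 macrophage genes from 277 to 427 FPKM. In such tissue, fewer cells of a type and less RNA per cell cannot be told apart.

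Articular cartilage is built on collagen fibrils and aggrecan, and the noncollagenous proteins bind to, organise or coat that scaffold. Chondrocytes of the superficial zone, at the joint surface, secrete lubricin, the product of Prg4, which keeps the opposing surfaces sliding. Deeper chondrocytes secrete COMP and the matrilins, which form multi-armed bridges between collagen fibrils, and CILP is deposited between the cells of the middle layers. Several of these proteins or their fragments are studied in serum and joint fluid as signs of cartilage turnover.

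The deposited levels placed 8 of the 10 genes among those expressed (mean of at least 0.5 FPKM), and left Matn1 and Matn3 close to 0. In WT libraries the order by median level was Cytl1, Prg4, Clec3a, Cilp, Clu, Comp, Ucma and Cilp2. The WT values of Cytl1 and Prg4 overlapped, as did those of Clec3a and Cilp and those of Clu and Comp, while the other neighbours in this order were separated over the WT libraries. Cytl1 and Prg4 were among the most abundant transcripts of the tissue. Their ranks by FPKM lay between 16 and 65 for Cytl1 and between 35 and 83 for Prg4 among 15373 expressed genes, whereas Col2a1 lay between 2159 and 3975. Prg4 exceeded Col2a1 by a ratio of 18.9 to 64.6 in FPKM, with 64.6 in the library labelled KO replicate 1, 35.2 and 35.0 in KO libraries 2 and 3, and 18.9, 28.6 and 35.6 in WT replicates 1, 2 and 3.

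**Figure D1:**
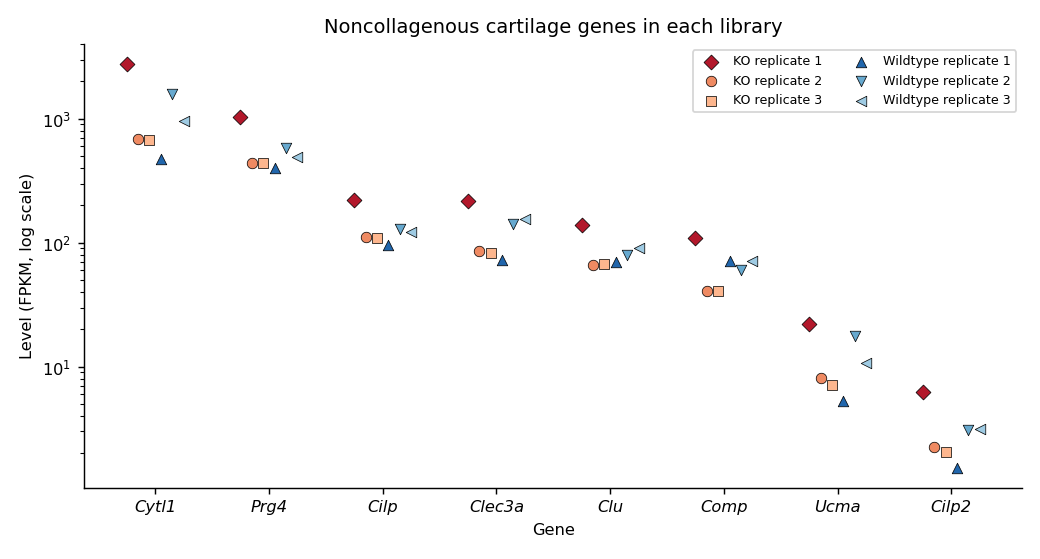
FPKM (log axis) of the 8 expressed genes, with 1 point for each library, in red and orange for KO and blue for WT. The library labelled KO replicate 1 is the highest point for each of the 8 genes, and KO replicates 2 and 3 lie together near or below the WT points.

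The genes of the joint surface were described first. Prg4 (ENSMUSG00000006014, chromosome 1, 150449412 to 150466165 on GRCm38, minus strand) encodes lubricin, and its span overlaps Tpr on the other strand. Its level was 1034 FPKM in the library labelled KO replicate 1, 436 and 441 FPKM in KO libraries 2 and 3, and 402, 581 and 494 FPKM in WT replicates 1, 2 and 3. A single library was thus above all others, and the remaining KO libraries lay inside the WT range. The KO mean was 737 ± 421 FPKM (SD, n = 2) and the WT mean 492 ± 89.3 FPKM (SD, n = 3). The log2 difference, KO minus WT, was 0.62 (SE 0.42), with an adjusted p of 0.612 by edgeR (quasi-likelihood F test, p-values adjusted by Benjamini and Hochberg's method).

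Clu (ENSMUSG00000022037, chromosome 14, 65968483 to 65981547) encodes clusterin, a secreted chaperone that is abundant near the joint surface. It had 139 FPKM in the library labelled KO replicate 1, 66.0 and 67.5 FPKM in KO libraries 2 and 3, and 69.9, 79.4 and 90.0 FPKM in the WT libraries. Both KO replicates 2 and 3 were below the lowest WT library, while the library labelled KO replicate 1 was above the highest. The log2 difference was 0.41 (SE 0.32), with an adjusted p of 0.675 by edgeR.

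Cilp (ENSMUSG00000042254, chromosome 9, 65265180 to 65280605) encodes cartilage intermediate layer protein, which binds TGF-beta, and Cilp2 (ENSMUSG00000044006, chromosome 8, 69880369 to 69887687) encodes its paralog. Cilp was at 219.9 FPKM in the library labelled KO replicate 1, at 110.3 and 109 FPKM in KO libraries 2 and 3, and at 95.1, 130.1 and 121 FPKM in WT. Cilp2 was at 6.30, 2.24 and 2.06 FPKM in KO libraries 1, 2 and 3, and at 1.53, 3.05 and 3.14 FPKM in WT. The paralogs ordered the libraries alike in that KO replicate 1 was highest and WT replicate 1 lowest for each. Cilp exceeded Cilp2 by a ratio of 34.9 to 62.1. Their log2 differences were 0.55 (SE 0.33) and 0.75 (SE 0.50), with adjusted p-values of 0.555 and 0.602 by edgeR.

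Genes of the multi-subunit bridging proteins were then examined. Comp (ENSMUSG00000031849, chromosome 8, 70373558 to 70382066) encodes cartilage oligomeric matrix protein, a pentamer of the thrombospondin family that binds collagen fibrils. Its level was 109 FPKM in the library labelled KO replicate 1, 41.0 FPKM in each of KO replicates 2 and 3, and 70.7, 60.2 and 71.2 FPKM in WT. The WT values were tight, with a ratio of highest to lowest of 1.18, and the KO libraries lay on both sides of them. The KO mean of 75.1 ± 48.3 FPKM (SD, n = 2) was therefore close to the WT mean of 67.4 ± 6.20 FPKM (SD, n = 3), and the log2 difference was 0.20 (SE 0.38), with an adjusted p of 0.896 by edgeR.

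Of all genes tested, 3.45% had this pattern, with the library labelled KO replicate 1 above all WT libraries and KO replicates 2 and 3 below all of them. Clu and Comp were the 2 members with it. For Comp, the fit without the library labelled KO replicate 1 gave a log2 difference of -0.75 (SE 0.15, adjusted p 0.0617 by edgeR). The fit without KO replicates 2 and 3 gave 0.78 (SE 0.15, adjusted p 0.351 by edgeR). Each of these fits leaves 1 KO sample, which is assumed to vary like the WT samples.

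The matrilins Matn1 and Matn3 form filaments that link collagen fibrils and aggrecan, and Matn1 is known as a protein of growing and non-articular cartilage. Matn1 (ENSMUSG00000040533, chromosome 4, 130944385 to 130955475) had 0, 22 and 0 counts in KO libraries 1, 2 and 3, and 17, 11 and 9 in WT. Matn3 (ENSMUSG00000020583, chromosome 12, 8947929 to 8972028) had 0, 4 and 3 counts in KO and 41, 0 and 0 in WT. Even KO replicates 2 and 3, which otherwise were nearly the same, gave 22 and 0 for Matn1. No fold is interpreted at these counts. A count of 0 allowed up to 0.0474 to 0.0574 CPM by library, where CPM are counts scaled to the total of a library, at a floor of 3 counts, which covers counting error only. The adjusted p-values were 0.678 and 0.663 by edgeR.

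The remaining genes encode small secreted proteins enriched in cartilage. Cytl1 (ENSMUSG00000062329, chromosome 5, 37735519 to 37739820) encodes a cytokine-like protein made by chondrocytes. Clec3a (ENSMUSG00000008874, chromosome 8, 114418086 to 114425846) encodes a C-type lectin of the tetranectin family, and Ucma (ENSMUSG00000026668, chromosome 2, 4976122 to 4985748) a protein rich in gamma-carboxyglutamate. Cytl1 had the widest spread of the expressed members, with 2759 FPKM in the library labelled KO replicate 1, 687 and 677 FPKM in KO libraries 2 and 3, and 471, 1573 and 954 FPKM in WT replicates 1, 2 and 3. Its WT libraries alone differed by a ratio of 3.34, a value exceeded by 1.38% of genes of at least 5 FPKM, and they enclosed KO replicates 2 and 3. The KO mean was 1720.4 ± 1469 FPKM (SD, n = 2) and the WT mean 999 ± 552 FPKM (SD, n = 3), with a log2 difference of 0.82 (SE 0.68) and an adjusted p of 0.694 by edgeR.

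Ucma was at 22.3, 8.13 and 7.13 FPKM in KO libraries 1, 2 and 3 and at 5.26, 17.5 and 10.8 FPKM in WT. Clec3a was at 217, 86.3 and 82.4 FPKM in KO and at 72.3, 142 and 155 FPKM in WT. For each of them WT replicate 1 was the lowest of the 6 libraries, as it was for Prg4, Cilp, Cilp2 and Cytl1. The log2 differences were 0.44 (SE 0.60) for Ucma and 0.33 (SE 0.46) for Clec3a, with adjusted p-values of 0.837 and 0.849 by edgeR.

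The sequence before the start of 3 of these genes is shown. Cytl1 and Ucma had the widest spread within WT, and Cilp followed Prg4 most closely over the 6 libraries. Without the library labelled KO replicate 1, Cytl1 and Ucma followed Prg4 more closely than Cilp did. The 250 bases before the start site were read from RefSeq promoters (GRCm38.p6), which matched 6 of the 10 genes by symbol: Cilp, Cilp2, Matn1, Matn3, Cytl1 and Ucma. Capitals mark the TATA box variant TATTTAA in Cytl1 and the RUNX core TGTGGT, which reads ACCACA on the other strand, in Ucma and Cilp. The windows are chr5:37735269-37735518 for Cytl1, chr2:4975872-4976121 for Ucma and chr9:65264930-65265179 for Cilp, all on the plus strand and written 5′ to 3′.
Cytl1: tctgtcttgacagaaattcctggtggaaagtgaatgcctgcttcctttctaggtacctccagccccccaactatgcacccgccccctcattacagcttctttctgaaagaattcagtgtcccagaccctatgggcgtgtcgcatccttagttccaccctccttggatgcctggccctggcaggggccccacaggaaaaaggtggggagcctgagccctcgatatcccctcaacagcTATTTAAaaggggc
Ucma: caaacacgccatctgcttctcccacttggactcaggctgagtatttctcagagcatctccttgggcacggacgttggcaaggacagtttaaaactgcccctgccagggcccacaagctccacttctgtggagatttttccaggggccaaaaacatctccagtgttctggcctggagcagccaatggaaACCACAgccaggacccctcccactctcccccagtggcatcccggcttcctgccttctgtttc
Cilp: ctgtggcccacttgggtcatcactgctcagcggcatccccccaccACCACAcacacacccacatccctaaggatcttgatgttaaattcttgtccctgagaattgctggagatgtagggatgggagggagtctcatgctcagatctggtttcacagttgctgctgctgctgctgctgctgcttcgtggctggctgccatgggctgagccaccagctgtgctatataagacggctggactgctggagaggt

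The motifs were searched on both strands. TATTTAA was in the Cytl1 window at -14 from the start and in 4.18% of 32851 promoters of that length. TGTGGT was in the windows of Cilp at -205, Matn1 at -134 and Ucma at -62, and in 14.05% of all promoters. The SOX core ACAAT was in that of Cilp2 and in 27.7% of promoters. Neither TATAAA, the AP-1 site TGANTCA nor the cAMP response element TGACGTCA was in any of the 6 windows, and these letters were found in 12.4%, 6.75% and 1.55% of all promoters. Only the exact letters were searched, so close forms such as tatataag, near the end of the Cilp window, were not counted. These matches describe letters and not bound sites.

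The KO and WT groups were then compared over all genes. By edgeR with 5 samples, 0 of 15375 genes tested (0.0%) had an adjusted p under 0.05, and 0 of the 10 members did. At an unadjusted p under 0.05, 2106 genes passed (13.7%), and again 0 members. All 8 expressed members had a positive log2 difference, from 0.20 (Comp) to 0.82 (Cytl1), with a median of 0.50 against -0.02 over all genes tested. This common sign rested on the library labelled KO replicate 1. Without it, all 8 were negative, at -0.21 for Prg4, -0.12 for Cilp, -0.30 for Cilp2, -0.30 for Clu, -0.75 for Comp, -0.61 for Cytl1, -0.59 for Clec3a and -0.61 for Ucma.

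With the 6 libraries as labelled, 3.71% of genes were called by edgeR and 5.72% by DESeq2 with 5 samples, and neither called a member. Without the library labelled KO replicate 1, 2.29% of genes were called and no member was. Comp was the 1 member lower at an unadjusted p under 0.05 in that fit, as were 9.89% of genes. Against the WT libraries, the library labelled KO replicate 1 alone gave log2 differences of 0.78 (Comp) to 1.52 (Cytl1) for the 8 expressed members. None was called in that fit by edgeR (0.0585% of all genes were), and 6 of them, all but Clec3a and Ucma, were higher at an unadjusted p under 0.05, against 5.36% of genes tested.

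**Figure D2:**
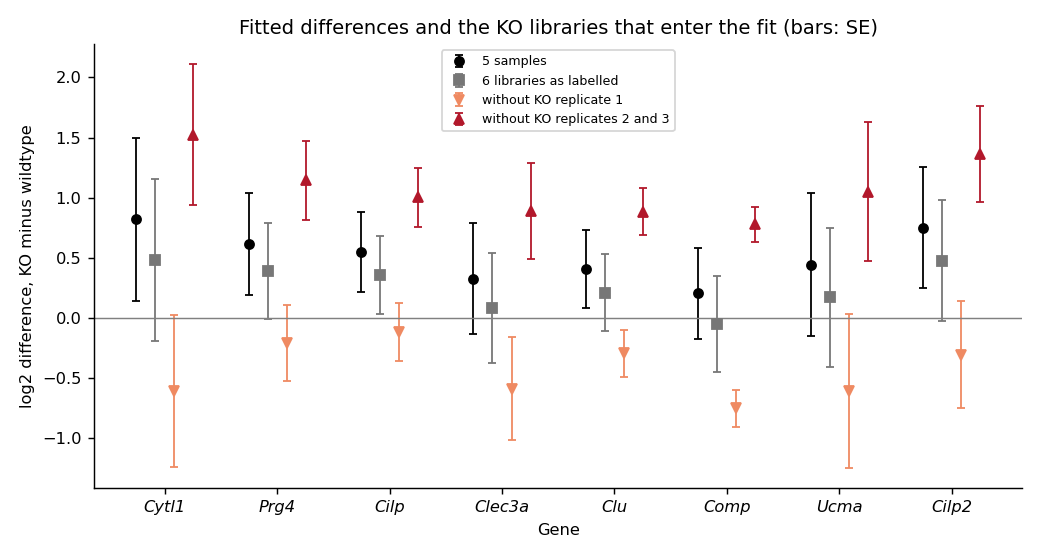
Log2 difference, KO minus WT, of the 8 expressed genes by edgeR, with bars for the SE, for all 5 samples, the 6 libraries as labelled, without the library labelled KO replicate 1 and without KO replicates 2 and 3. The points are positive with 5 samples, negative for all 8 genes without the library labelled KO replicate 1, and highest without KO replicates 2 and 3.

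The pattern over libraries was shared by the expressed members. The library labelled KO replicate 1 was the highest of 6 for 8 of 8, where 11.1% of genes tested had their highest level there. It exceeded the mean of KO replicates 2 and 3 by a ratio of 2.01 (Cilp) to 4.05 (Cytl1), and the ratio was 2.36 for Prg4 and 2.66 for Comp. The median gene of at least 5 FPKM had a ratio of 0.904. Among 7614 such genes, 0.447% had a larger ratio than Cytl1 and 2.22% a larger one than Cilp.

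Within WT, replicate 1 was the lowest for 7 of the 8, all but Comp, where 26.8% of genes tested had their lowest WT level there. The ratio of the highest to the lowest WT library was 1.18 for Comp, 1.29 for Clu, 1.37 for Cilp, 1.44 for Prg4, 2.05 for Cilp2, 2.15 for Clec3a, 3.33 for Ucma and 3.34 for Cytl1, and the median gene had 1.21. The small secreted proteins and Cilp2 thus varied most among WT libraries, and Comp about as much as the median gene. KO replicates 2 and 3 lay within the WT range for 6 of the 8, as they did for 22.9% of genes tested.

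**Figure D3:**
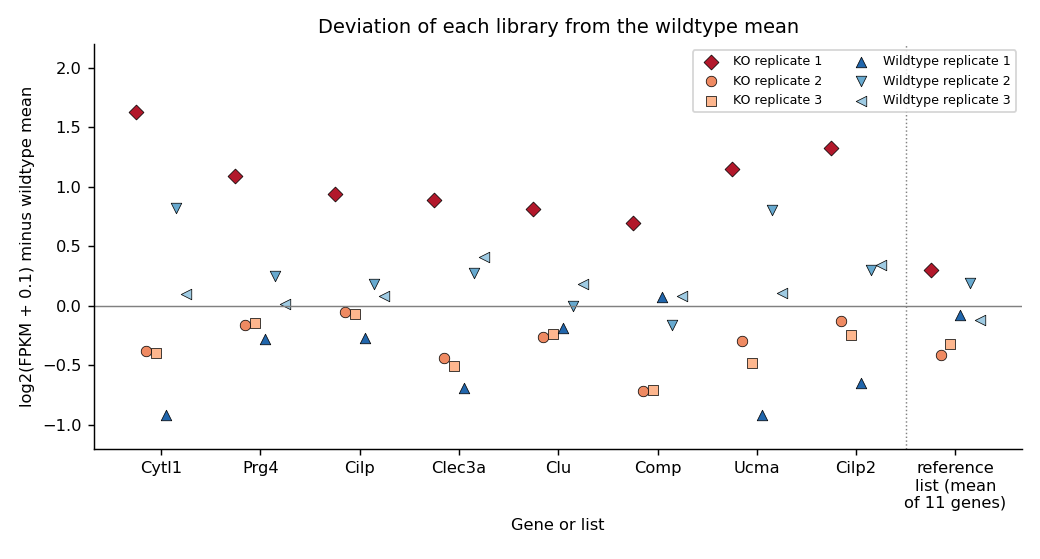
Level of each expressed gene in each library as log2(FPKM + 0.1) minus its WT mean, with the mean of the 11 chondrocyte genes (reference list) at the right. The library labelled KO replicate 1 is the highest for all 8 genes, and WT replicate 1 is the lowest WT library for all but Comp.

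Across the 6 libraries, Pearson's r of log2(FPKM + 0.1) between pairs of expressed members had a median of 0.919 over 28 pairs. It was highest for Prg4 with Cilp (0.993), was 0.986 for Cytl1 with Ucma and 0.973 for Cilp with Cilp2, and was lowest for Comp with Ucma (0.571). Comp stood somewhat apart, with r of 0.571 to 0.875 to the others. The points are 6 libraries that share their composition, 2 of them nearly the same, so these values are a description. Without the library labelled KO replicate 1, over 5 libraries, the median was 0.867, and Comp had r of 0.041 to 0.711 to the others. Prg4 then had r of 0.995 with Cytl1, 0.988 with Ucma and 0.950 with Cilp. Among 7607 other genes of at least 5 FPKM, those most like Prg4 by the same measure were Gm5617 (0.996), Wsb2 (0.993), Khk (0.982), Thbs4 (0.982) and Fibin (0.981). Those most like Comp were Rnf167 (0.990), Vit (0.988), Egr1 (0.988), Igfbp6 (0.986) and Mgp (0.985).

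Levels were also set against the chondrocyte genes of the same library, as log2(FPKM + 0.1) of a member minus the mean of the 14 chondrocyte genes. That mean includes Col9a1, Epyc and Sox5, which were below 0.5 FPKM, so values near 0 enter the scale. On this scale Prg4 was at 7.43, 6.96 and 6.95 in KO libraries 1, 2 and 3 and at 6.48, 6.81 and 6.86 in WT. Cilp was at 5.20, 4.97 and 4.94 in KO and at 4.39, 4.65 and 4.83 in WT. All 3 KO libraries were above all 3 WT libraries for these genes, which was not so on the unscaled level, and 2.83% of genes tested had such a gap on this scale. The groups overlapped for the other 6 members, such as Clu, at 4.54, 4.23 and 4.25 in KO and at 3.95, 3.94 and 4.40 in WT. The KO minus WT difference was 0.48 for Prg4 (pooled SD 0.26), 0.45 for Cilp (pooled SD 0.21) and 0.0056 for Comp (pooled SD 0.35). Without the library labelled KO replicate 1 these differences were 0.24, 0.33 and -0.32, and the median over the 8 members was 0.072 against 0.42 with it. Cytl1 still ranged over 2.15 log2 units across the libraries, against 2.55 unscaled, and Prg4 over 0.96 against 1.36. These differences were given no test. Against Col2a1 alone the groups overlapped for Prg4, at FPKM ratios of 35.2 and 35.0 in KO libraries 2 and 3 and 35.6 in WT replicate 3. The chondrocyte genes themselves were uneven: Chad was at 230.4, 112 and 116 FPKM in KO and 70.3, 121 and 142 FPKM in WT, while Col2a1 was at 16.0, 12.4 and 12.6 FPKM in KO and 21.3, 20.3 and 13.9 FPKM in WT.

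Other genes of the same biology were described by list, and no gene of any list passed the adjusted threshold by edgeR with 5 samples. Of the 11 chondrocyte genes tested, 6 were higher and 5 lower in KO, with a median log2 difference of 0.04, or -0.43 without the library labelled KO replicate 1, and 7 (Col9a2, Col9a3, Acan, Hapln1, Chad, Snorc and Sox9) had their highest level in the library labelled KO replicate 1. Sox6, a partner of SOX9 at cartilage genes, had a log2 difference of -0.61 (adjusted p 0.202 by edgeR). Among paralogs of the members, 2 of 6 were higher and 4 lower, with a median of -0.22, or -0.45 without the library labelled KO replicate 1. Thbs4, a thrombospondin like Comp, was at 43.4, 12.2 and 10.9 FPKM in KO and at 10.99, 20.2 and 11.9 FPKM in WT. Thbs1 stayed between 55.9 and 65.7 FPKM in all 6 libraries.

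Genes of partners at collagen fibrils and the cell surface divided evenly, with 5 of 10 higher and 5 lower and a median of -0.03, or -0.31 without the library labelled KO replicate 1. Dcn, the gene of the fibril-bound proteoglycan decorin, was at 183, 43.2 and 43.4 FPKM in KO and at 93.9, 121 and 107 FPKM in WT, so KO replicates 2 and 3 were below all WT libraries, as for Comp. Cd44, a receptor that binds lubricin and hyaluronan, was at 37.7, 51.4 and 52.7 FPKM in KO and at 40.4, 31.7 and 33.7 FPKM in WT. It was highest in KO libraries 2 and 3, where Prg4 was not. Lrp8, a receptor of clusterin, had a log2 difference of 0.65 (adjusted p 0.231 by edgeR).

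Of 8 proteinases known to cut the members or their partners, 4 were higher and 4 lower, with a median of -0.18, or -0.42 without the library labelled KO replicate 1. Elane and Ctsg, serine proteinases stored in neutrophil granules (Elane is also in the neutrophil list), had log2 differences of 0.87 and 0.88, and Mmp3, stromelysin, had -1.18, with adjusted p-values of 0.175, 0.216 and 0.258 by edgeR. Of 10 regulators of Prg4 with at least 0.5 FPKM, 2 were higher and 8 lower, with a median of -0.20. Erg, a transcription factor of articular chondrocytes that endothelial cells also express, was at 9.23, 11.6 and 11.5 FPKM in KO and at 7.68, 7.09 and 7.07 FPKM in WT. Foxo1, a transcription factor that acts on Prg4, was at 2.93, 2.54 and 2.24 FPKM in KO and at 4.39, 3.36 and 4.18 FPKM in WT. For both, the libraries of the groups did not overlap in FPKM. Such a gap with KO higher was found for 11.3% of genes tested and with KO lower for 13.7%. Their adjusted p-values were 0.186 and 0.253 by edgeR. None of these 10 had its highest level in the library labelled KO replicate 1, while Creb5, under 0.5 FPKM in the mean, did, at 0.542 FPKM.

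Hypertrophic cartilage genes were lower in KO for 7 of 8 with a median of -0.34, or -0.55 without WT replicate 3. Col10a1 was at -0.11 (SE 0.36), Runx2 at -0.00058 (SE 0.23) and Ihh, the 1 higher gene, at 0.57 (SE 0.45). Which cells these transcripts came from was not tested. Without WT replicate 1, the medians were -0.050 for the chondrocyte genes, 0.058 for the paralogs, 0.068 for the partners, -0.051 for the proteinases and -0.088 for the regulators of Prg4. Markers of other cells were summarised in the same way. The median log2 difference was 0.85 for neutrophil genes (7 of 7 higher), -1.44 for B cell genes (7 of 7 lower) and -1.60 for adipocyte genes (5 of 5 lower). It was -0.47 for synovial lining and fibroblast genes (7 of 7 lower). Each of these medians kept its sign with any 1 library left out, with the synovial lining and fibroblast genes between -0.75 and -0.29. The median was -0.98 for erythroid genes (7 of 7 lower) and -0.31 for macrophage genes (5 of 7 lower). Without the library labelled KO replicate 1, these were -1.71 and -0.69. The remaining medians turned with 1 library. Skeletal muscle genes had -0.56 (5 of 5 lower), but -6.46 without the library labelled KO replicate 1 and 0.82 without WT replicate 3. Osteoblast and osteocyte genes had -0.44 (7 of 9 lower), but -0.95 without the library labelled KO replicate 1 and 0.0058 without WT replicate 1. Tendon, ligament and meniscus genes had -0.47 (3 of 4 lower), but 0.050 without WT replicate 1. Their part in the values of the members was not tested.

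Relative to the WT mean, the mean log2 level of the muscle genes was 0.84 in the library labelled KO replicate 1, -4.88 and -4.96 in KO libraries 2 and 3, and -1.33, -0.52 and 1.85 in WT replicates 1, 2 and 3. For the 8 members it was 1.07, -0.30 and -0.35 in KO and -0.48, 0.31 and 0.17 in WT, and for the 11 chondrocyte genes 0.31, -0.41 and -0.32 in KO and -0.07, 0.19 and -0.12 in WT. The library labelled KO replicate 1 was thus above KO replicates 2 and 3 for all of these lists. The same held for other lists, such as adipocyte genes (-1.43, -2.81 and -2.84 in KO) and erythroid genes (-0.53, -1.44 and -1.44). It did not hold for the neutrophil genes, the tendon, ligament and meniscus genes and the regulators of Prg4. The mean of the neutrophil genes was nearly level over the KO libraries, at 0.79, 0.84 and 0.85, but its genes were not. Mpo was at 343, 620 and 611 FPKM in KO libraries 1, 2 and 3, and S100a8 at 16321, 11795 and 12094 FPKM. Of the 7 neutrophil genes, 4 had their highest level in the library labelled KO replicate 1. The mean of the B cell genes was at -1.21, -1.65 and -1.61 in KO and at 0.15, -0.08 and -0.07 in WT.

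**Figure D4:**
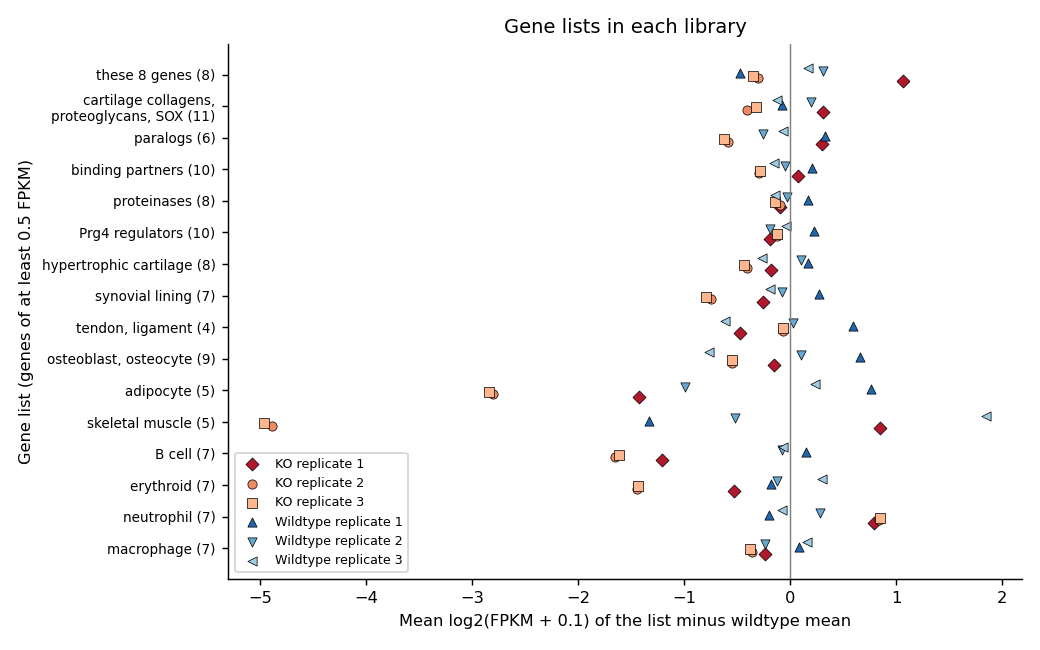
Mean log2(FPKM + 0.1) of each gene list in each library minus the WT mean, with the number of genes of each list in brackets. The members are at 1.07 in the library labelled KO replicate 1 and at -0.30 and -0.35 in KO libraries 2 and 3, with muscle genes at 0.84, -4.88 and -4.96 in the same libraries.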

How the data were processed

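RNA sequencing was described in 6 libraries of mouse articular cartilage, grouped and numbered by their titles. According to the labels, poly(A) RNA was selected on oligo(dT) beads, fragmented and made into strand-specific libraries with molecular identifiers in the adapters, read as pairs of 150 bp. The submitters' processing notes name cutadapt 1.9, HISAT2 2.0.4, UMI-tools, StringTie 1.3.4d, DESeq2 and edgeR, without roles. The authors deposited an FPKM value and an estimated count for each gene and library, with positions on GRCm38. The FPKM are scaled within each library. The estimated counts were whole numbers as given. Unmatched per-sample columns numbered 0. The targeted gene is not reported here.

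Counts were tested with edgeR 4.0.16 (quasi-likelihood, TMM scaling, R 4.3.3) over all genes that reached a mean of 0.5 FPKM, plus Matn1 and Matn3, and p-values were adjusted by Benjamini-Hochberg over 15375 genes. Each SE is the absolute log2 difference divided by the square root of F. The test was also run on simulated counts, in which the KO samples shared a mean for each gene. The outcome of that run is not given here, and no conclusion is drawn from it. KO replicates 2 and 3 were averaged because they differed far less than other pairs. All members were named. From each list, up to 3 genes with the smallest p and the 2 with the highest mean FPKM could be named, and the 5 genes most correlated with Prg4 and with Comp. Creb5, Col10a1, Runx2, Ihh, genes listed by their highest library and the 3 chondrocyte genes under 0.5 FPKM were named after their values were seen. The members and lists were chosen with earlier results of these data known. Alternatives were the 6 libraries as labelled, a replicate block, median-of-ratios scaling, DESeq2 1.42.0, limma 3.58.1 on log2(FPKM + 1) and log2(FPKM + 0.1), other filters, and each library left out. Replicate numbers were not treated as pairs in the main fit.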

Additional observations from a re-analysis of the deposited data

How the results depend on the processing

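The correlation of deviations from the group means between same-numbered libraries was -0.15, -0.11 and -0.058 for numbers 1, 2 and 3. KO replicates 2 and 3 were nearly the same, so this check could not tell pairing by numbers 2 and 3 apart. With the numbers as a replicate block, 0 genes and 0 members were called, and the log2 difference was -0.25 for Comp and -0.062 for Clec3a, both reversed. Comp also reversed to -0.050 with the 6 libraries as labelled, and to -0.0034 and -0.0057 with limma on log2(FPKM + 1) and log2(FPKM + 0.1). No alternative called a member.

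The number of genes called was 0 with 5 samples, 570 with the 6 libraries as labelled, 880 with DESeq2, 21 with no filter and 9 without KO replicates 2 and 3. Over the libraries left out 1 at a time it ranged from 0 to 352, the latter without KO replicate 1. Over the same fits the genes called in the context lists ranged from 0 to 11, and they numbered 13, 21 and 4 with the 6 libraries as labelled, DESeq2 and no filter. The cause of these changes was not tested.

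Leaving out 1 library gave log2 differences of -0.21 to 0.78 for Prg4, -0.12 to 0.67 for Cilp, -0.30 to 0.92 for Cilp2, -0.30 to 0.51 for Clu, -0.75 to 0.25 for Comp, -0.61 to 1.35 for Cytl1, -0.59 to 0.53 for Clec3a and -0.61 to 0.96 for Ucma. The lowest value came without KO replicate 1 for each. Without WT replicate 1, Matn3 turned to 4.01, from counts near 0, in a range of -3.24 to 4.01. The median of the chondrocyte genes ranged from -0.43 to 0.11 and that of the muscle genes from -6.46 to 0.82. The median chondrocyte-relative difference of the members was 0.40 with log2(FPKM + 1) and 0.072 without KO replicate 1, the latter chosen after seeing the data, as was the correlation without that library.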

Other observations

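The deposited gene ontology terms placed 9 of the 10 genes in the extracellular region, a term held by 7.04% of 25835 annotated genes, with Cytl1 as the exception. Comp, Matn1 and Matn3 carried the term for calcium ion binding, held by 3.10% of annotated genes. Cilp2 and Comp lie on chromosome 8 with 485.87 kb between them. Over the libraries, Comp and Cilp2 differed in WT replicate 1, where Cilp2 was at its lowest level of 1.53 FPKM and Comp, at 70.7 FPKM, was near its highest WT level. The ratio of Cytl1 to Prg4 in FPKM was 2.67, 1.57 and 1.53 in KO libraries 1, 2 and 3 and 1.17, 2.71 and 1.93 in WT, so the more abundant of these transcripts was Cytl1 in each of the 6 libraries.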
